A study of Mus musculus with 6 samples.

Results

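Astrocytes end transmission by taking transmitter out of the extracellular space and breaking it down, and 7 genes of this task for GABA, glycine and the monoamines were followed in hippocampal astrocytes after microglia had been ablated. They were put together by their function, with earlier results of these data known, and all 7 were among the 24421 genes listed and among the 15137 that passed a filter on low values (a mean of at least 0.5 over the 6 libraries in CPM, the reads of a gene relative to the scaled depth of its library). The transporters were *Slc6a11* (GAT3, GABA), *Slc6a9* (GlyT1, glycine) and *Slc22a3* (OCT3, monoamines). The enzymes were *Abat* (GABA transaminase), *Gldc* (glycine decarboxylase), *Maoa* and *Maob* (the monoamine oxidases).

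The mice were *Siglech* dtr/dtr mice on a C57BL/6 background, in which the diphtheria toxin receptor is expressed from the locus of the microglial gene *Siglech*, so that diphtheria toxin (DT) kills microglia. Both groups carried this allele and received an intraperitoneal injection of either PBS or DT at 50 μg/kg, and astrocytes were collected 2 days later. Each library came from the hippocampi of 2 mice pooled, with 3 libraries per group from separate experiments, and the cells were depleted of CD11b+ cells and then selected with ACSA-2, an antibody to the astrocyte surface protein that *Atp1b2* encodes, on magnetic columns. A group given DT without the receptor was not analysed here, so DT itself and the loss of microglia cannot be told apart. The mice were adults according to the methods of the study, and the labels give no age for each pool.

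GABA that escapes the synapse is carried into astrocytes by GAT3 together with sodium and chloride. Inside, GABA transaminase turns it into succinic semialdehyde, which succinic semialdehyde dehydrogenase (*Aldh5a1*) oxidises so that its carbon enters the citric acid cycle. Glycine is carried by GlyT1 and is split in mitochondria by the glycine cleavage system, in which *Gldc* is the decarboxylase, *Amt* the aminomethyltransferase, *Gcsh* the carrier of the intermediate and *Dld* the dehydrogenase. Monoamines enter through low-affinity carriers such as OCT3 and PMAT (*Slc29a4*) and are oxidised by the monoamine oxidases, and MAO-B is the form for which astrocytes are best known.

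The sequence upstream of the start site is shown for 3 of the 7 genes. They are the highest by level (*Slc6a11*), the one with the largest difference relative to its error (*Gldc*) and the lowest by level (*Slc22a3*). Each run is the 250 bases before the start site in RefSeq on GRCm38.p6, on the strand of the gene, and capitals mark GC boxes (GGGCGG or CCGCCC, the same motif on the other strand). The windows are chr6:114130991-114131240 on the plus strand for *Slc6a11*, chr19:30175442-30175691 on the minus strand for *Gldc* and chr17:12507705-12507954 on the minus strand for *Slc22a3*.
Slc6a11: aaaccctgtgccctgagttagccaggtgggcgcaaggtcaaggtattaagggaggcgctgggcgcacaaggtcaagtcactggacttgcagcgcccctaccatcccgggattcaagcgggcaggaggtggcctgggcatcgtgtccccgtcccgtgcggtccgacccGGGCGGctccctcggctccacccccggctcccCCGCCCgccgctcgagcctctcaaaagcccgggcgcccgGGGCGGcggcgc
Gldc: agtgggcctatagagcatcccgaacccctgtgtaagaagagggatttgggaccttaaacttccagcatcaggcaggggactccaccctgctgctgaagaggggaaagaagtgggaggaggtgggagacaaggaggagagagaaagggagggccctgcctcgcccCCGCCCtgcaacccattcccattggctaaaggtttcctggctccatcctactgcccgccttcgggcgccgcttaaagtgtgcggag
Slc22a3: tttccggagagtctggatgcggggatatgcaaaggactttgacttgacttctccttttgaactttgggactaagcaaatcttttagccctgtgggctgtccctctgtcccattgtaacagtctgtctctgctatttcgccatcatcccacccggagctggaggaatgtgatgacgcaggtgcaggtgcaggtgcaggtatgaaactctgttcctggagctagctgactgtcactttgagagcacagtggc
The *Slc6a11* window held 3 GC boxes, 25 CpG and 71.2% G and C. The *Gldc* window held 1 box, 8 CpG and 59.6% G and C, and the *Slc22a3* window held 0 boxes, 5 CpG and 51.2% G and C. Of 32851 promoter windows of this length 32.7% held at least 1 GC box, and their median was 6 CpG. Promoters were matched for 5 of the 7 genes. Of the matched genes not shown, the *Maoa* window held 1 box, and the windows of *Slc6a9* held 2, 0 and 0. With the *Slc6a9* window of 2 boxes, the boxes did not follow the order of levels over the matched genes. With either of its windows of 0 boxes, they did not run against that order. Which start site of *Slc6a9* these cells use was not measured. The letters describe the windows only, and no binding or chromatin was measured here.

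The cells carried the RNA of astrocytes. The 8 astrocyte markers (among them *Aldh1l1*, *Aqp4* and *Slc1a2*) summed to 25650 to 26943 TPM, a relative level per length of transcript, after PBS and 26196 to 27909 TPM after DT, with none at 0. The reads recovered from the CPM of the listed genes summed to 21704891 to 32933975 per library. *Gfap*, a filament gene of reactive astrocytes, rose from 1109 ± 131 TPM to 4238 ± 324 TPM (SD, n = 3; limma adjusted p = 8.20e-05), and *Siglech* was read 21, 71 and 42 times after PBS and 0 times after DT. Where nothing else is said, ± gives the SD over 3 libraries. In bulk RNA of a sorted population, fewer cells of a type and less RNA per cell cannot be told apart.

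None of the 7 genes passed the test between DT and PBS. Using limma on log2(CPM + 0.1) with Benjamini-Hochberg adjustment over 15137 genes, 0 of 7 had an adjusted p under 0.05, where the threshold was passed by 0.713% of all genes, and 1 of 7 (*Gldc*) had an unadjusted p under 0.05, as had 10.4% of all genes. On the recovered reads edgeR's quasi-likelihood test called 0 of 7, beside 0.733% of all genes, and DESeq2 called 1, *Gldc*, beside 2.15%. All 7 estimates were below 0, as were 51.3% over all genes, but not in every fit. Leaving out PBS replicate 1 or PBS replicate 3 left 5 of 7 below 0, and leaving out DT replicate 2 left 6 of 7. The median log2 fold change was -0.10 for the 7 genes and -0.01 for all genes, and the median size without sign was 0.10 and 0.11.

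**Figure D1:**
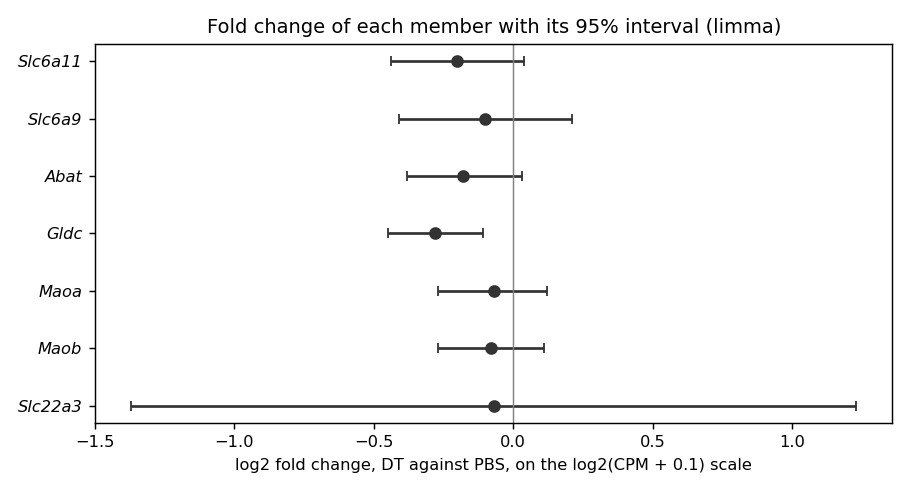
Log2 fold change of each of the 7 genes, DT against PBS, on the log2(CPM + 0.1) scale (x axis), with points for the estimate and bars for its 95% interval from limma. Gldc has the only interval that stays below 0 (-0.45 to -0.11) without an adjusted p under 0.05, and the interval of Slc22a3 (-1.37 to 1.23) is the widest, with an estimate above 0 in 6 of 15 other fits.

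Levels per length of transcript kept the same order in all 6 libraries, from *Slc6a11* through *Gldc*, *Abat*, *Maob*, *Maoa* and *Slc6a9* to *Slc22a3*. All 6 pairs of neighbours in this order were apart in both groups, with no overlap of their TPM. After PBS the highest of the 7 stood 1784-fold above the lowest. *Slc6a11*, *Gldc* and *Abat* stood at percentiles 99.3, 98.3 and 97.1 of the genes tested by TPM after PBS, *Maob* and *Maoa* at 88.7 and 84.2, *Slc6a9* at 63.7 and *Slc22a3* at 1.02. The genes for taking up and degrading GABA and for degrading glycine were thus among the most abundant transcripts, the monoamine oxidases were well expressed, and the monoamine carrier was at the edge of detection.

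**Figure D2:**
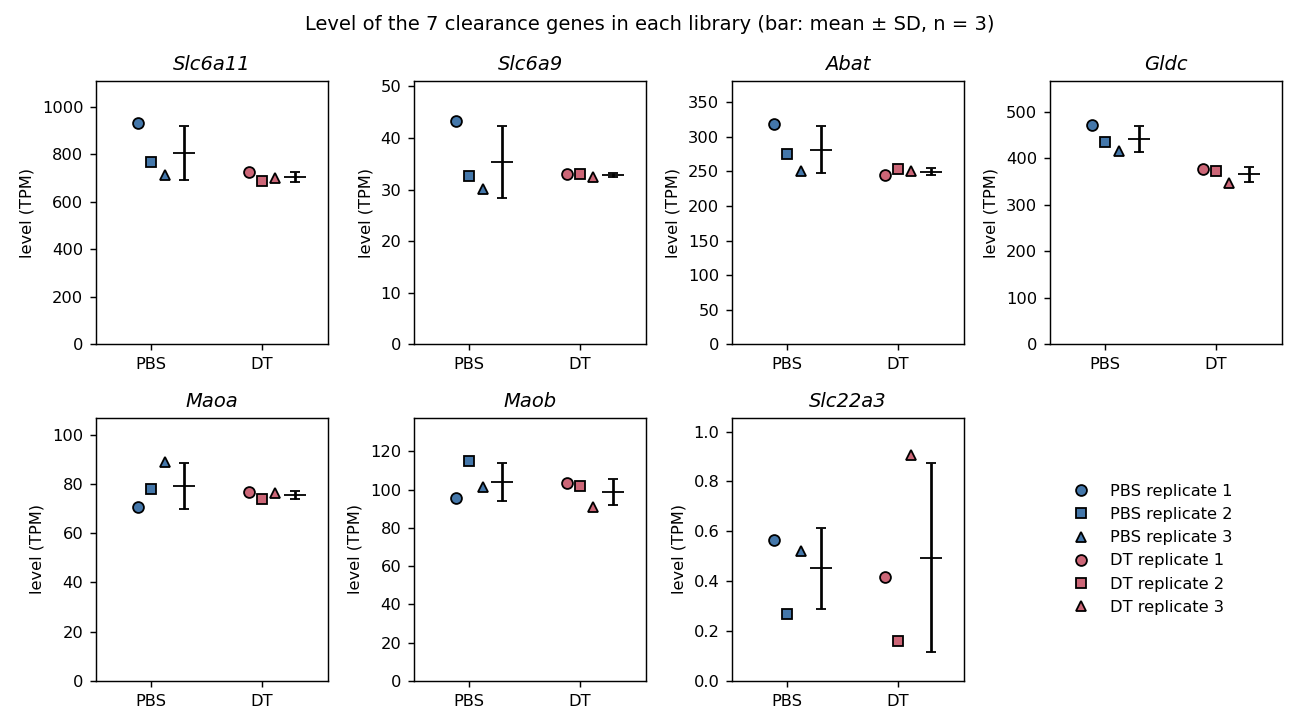
Level of each of the 7 genes in TPM (y axis, from 0, one panel per gene) in the PBS and DT libraries, with a symbol for each replicate, and a bar for the mean ± SD (n = 3). The 3 DT libraries of Gldc (346.9 to 378.2 TPM) lie below the 3 PBS libraries (416.2 to 471.8 TPM), and in the other 6 panels the groups overlap.

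*Slc6a11* encodes the GABA transporter found mainly in astrocytes, and its gene lies on the plus strand of chromosome 6 of mm10 from 114131241 to 114249952. The level was 932, 768 and 714 TPM in the PBS libraries of replicates 1 to 3 and 727, 686 and 699 TPM in the DT libraries. PBS replicate 1 stood above all others, and the lowest PBS library lay within the range of the DT libraries. The means were 804 ± 114 and 704 ± 20.9 TPM, and the log2 fold change was -0.20 (SE 0.10, 95% interval -0.44 to 0.04, limma adjusted p = 0.562). As a percentage this interval runs from -26.1% to 3.01%. Without PBS replicate 1 the log2 fold change was -0.07, and 21539 to 34767 reads per library kept the counting error under 1%.

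*Abat* encodes the enzyme that removes the amino group from GABA, and neurons use it as well as astrocytes. Its gene lies on the plus strand of chromosome 16 from 8513429 to 8621568. The level was 318, 275 and 251 TPM after PBS and 244, 254 and 250 TPM after DT. As with *Slc6a11*, PBS replicate 1 was the highest library, and PBS replicate 3 lay within the range of the DT libraries in TPM. In CPM the groups did not overlap, with 512.7, 427.5 and 396.5 after PBS and 391.7, 392.0 and 390.2 after DT. The log2 fold change was -0.18 (SE 0.09, 95% interval -0.38 to 0.03, limma adjusted p = 0.536), and without PBS replicate 1 it was -0.07. The 6 neuron markers summed to 631 to 714 TPM after PBS and 549 to 756 TPM after DT, ranges that overlap, and their part in the *Abat* level was not tested.

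*Gldc*, whose product takes the carboxyl group from glycine and so begins its cleavage, showed the largest difference of the 7 relative to its error. The gene spans 30098447 to 30175429 of chromosome 19, minus strand. The level was 472, 435 and 416 TPM after PBS and 378, 372 and 347 TPM after DT. Every DT library stood below every PBS library, both in TPM and in CPM (two-sided exact permutation p = 0.1 for TPM, and 3 libraries against 3 cannot give less). In CPM, *Gldc* and *Abat* made 2 of 7 genes with every DT library below every PBS library, beside 7.57% over all genes. The means of *Gldc* were 441 ± 28.2 and 366 ± 16.6 TPM. The log2 fold change was -0.28 (SE 0.07, 95% interval -0.45 to -0.11, unadjusted p = 0.00441 and adjusted p = 0.205 from limma), a difference of -17.8% with an interval from -26.8% to -7.62%. The part of a changed cell mix in this difference was not tested. The difference did not pass the adjustment in the limma fit. DESeq2 on the recovered reads called it (adjusted p = 0.0360), and the adjusted p lay between 0.0360 and 0.480 over 16 other fits, in which the log2 fold change stayed between -0.32 and -0.22.

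*Slc6a9* encodes the glycine transporter of astrocytes, and its gene lies on the plus strand of chromosome 4 from 117834506 to 117875198. The level was 43.3, 32.7 and 30.1 TPM after PBS and 33.1, 33.0 and 32.4 TPM after DT. The 3 DT libraries lay within 1.02-fold of each other and inside the range of the PBS libraries, which was set by PBS replicate 1. The log2 fold change was -0.10 (SE 0.13, 95% interval -0.41 to 0.21, limma adjusted p = 0.846), and without PBS replicate 1 it was 0.07, so the direction turned. *Ccdc24* and *B4galt2* overlap *Slc6a9* on the opposite strand. *Ccdc24* had 10.1 ± 1.76 TPM after PBS and 16.2 ± 2.58 TPM after DT (log2 fold change 0.65, SE 0.18, limma adjusted p = 0.262).

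*Maob* and *Maoa* encode the enzymes that oxidise monoamines at the outer membrane of mitochondria, and they are neighbours on the X chromosome, pointing towards each other with 21463 bp between them (*Maoa* on the plus strand from 16619698 to 16687818, *Maob* on the minus strand from 16709282 to 16817366). *Maob* had 95.6, 115 and 101 TPM after PBS and 104, 102 and 91.1 TPM after DT. *Maoa* had 70.5, 78.0 and 89.1 TPM after PBS and 76.6, 73.8 and 76.3 TPM after DT. For both genes PBS replicate 1 was the lowest PBS library, unlike the other 5 genes, for which it was the highest. The log2 fold change of *Maob* was -0.08 (SE 0.08, 95% interval -0.27 to 0.11, limma adjusted p = 0.780). That of *Maoa* was -0.07 (SE 0.08, 95% interval -0.27 to 0.12, limma adjusted p = 0.811), and it was 0.01 without PBS replicate 3. *Maob* made up 56.8 ± 3.28% of the summed TPM of the pair after PBS and 56.6 ± 1.94% after DT.

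*Slc22a3* encodes a low-affinity carrier of noradrenaline, dopamine, serotonin and histamine, and its gene spans 12418960 to 12507704 of chromosome 17, minus strand. It was read 15, 11 and 14 times in the PBS libraries and 12, 6 and 25 times in the DT libraries, which gave 0.567, 0.267 and 0.519 TPM and 0.416, 0.159 and 0.907 TPM. The DT group held both the lowest and the highest library. Counting alone allows 2.20 to 13.1 reads for DT replicate 2 and 16.2 to 36.9 reads for DT replicate 3 (exact Poisson 95% intervals). These intervals cover counting error only and take the reads as independent, which paired-end reads may not be. The log2 fold change was -0.07 (SE 0.57, 95% interval -1.37 to 1.23, limma adjusted p = 0.977), while the mean was 0.451 ± 0.161 TPM after PBS and 0.494 ± 0.380 TPM after DT, so the sign depended on the scale. The interval runs from 0.387-fold to 2.34-fold, so differences within that range could not be told from none in these libraries. The coefficient of variation of TPM in the DT group was 76.9%, where counting alone would give 29.9% if the reads were independent. DT replicate 3 also had the highest sums of the ependymal (897 TPM), neuron (756 TPM) and inhibitory neuron markers (53.8 TPM). The ependymal sum was 566 TPM in DT replicate 2, which had 6 *Slc22a3* reads, and 380 TPM in PBS replicate 1, which had 15. The part of these cells in the *Slc22a3* reads was not tested.

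The PBS libraries differed among themselves more than the DT libraries did for most of these genes. The coefficient of variation of TPM was higher after PBS for 6 of 7 genes, beside 54.8% of 15130 genes, a difference in spread that was not tested. It was 19.7% after PBS and 1.14% after DT for *Slc6a9*, 14.1% and 2.97% for *Slc6a11*, and 12.1% and 2.01% for *Abat*. *Slc22a3* was the exception, at 35.7% and 76.9%. PBS replicate 1 was the highest PBS library for 5 of 7 genes, and for 27.1% of all genes. Across the 6 libraries *Slc6a11* and *Abat* varied together (Pearson r = 0.965), as did *Slc6a9* with *Slc6a11* (r = 0.923) and with *Abat* (r = 0.912), while *Maoa* ran against *Slc6a9* (r = -0.57). These values describe 6 libraries with a shared scaling, and 1 of them, PBS replicate 1, stands at the end of each range.

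**Figure D3:**
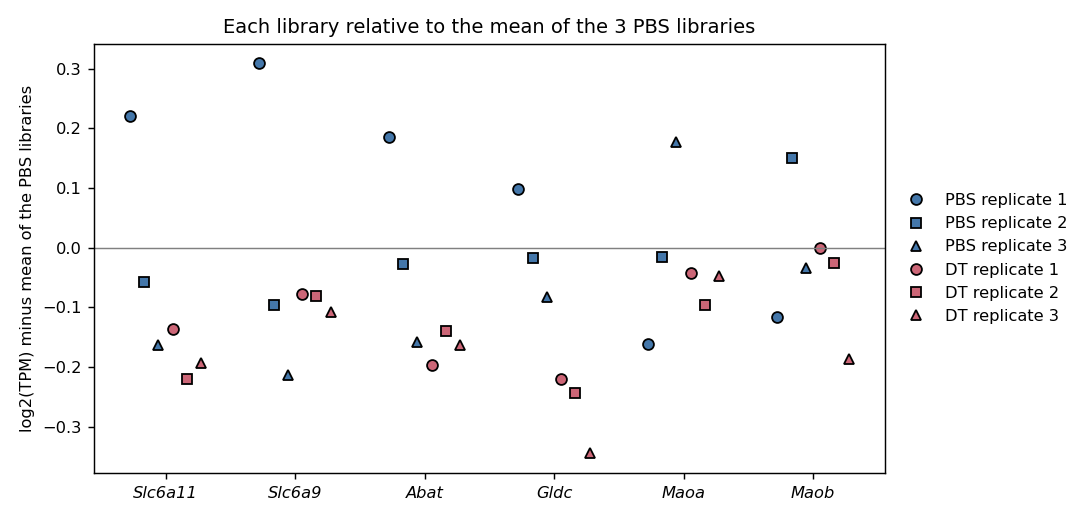
Log2 TPM of 6 of the 7 genes (all but Slc22a3) in each library minus the mean log2 TPM of the 3 PBS libraries (y axis), with genes on the x axis and a symbol for each library. PBS replicate 1 stands at 0.31 for Slc6a9, 0.22 for Slc6a11 and 0.19 for Abat, and at -0.16 for Maoa, while the DT libraries of Gldc lie between -0.35 and -0.22.

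Among genes with a mean of at least 10 CPM, the pattern over the 6 libraries most like that of each member was sought by Pearson r of log2(CPM + 0.1). The pair for *Gldc* was *Ptpn9* (r = 0.998) and *Asrgl1* (r = 0.997), both with a Spearman's rho of 1. *Akirin1* and *Map3k2* were nearest to *Slc6a11* (r = 0.996 and 0.993), *Pnrc2* was near to *Abat* (r = 0.995), and *Apba2* and *Zfp213* were nearest to *Slc6a9* (r = 0.991 and 0.984). *Ppp2r2b* was near to *Maob* (r = 0.981), and *Kars* and *Ninl* were nearest to *Maoa* (r = 0.987 and 0.983). *Lamtor5* was near to *Slc22a3* (r = 0.972). For *Pnrc2* Spearman's rho was 0.771, and for the other genes named here it was 0.943 or 1. The genes were picked as the 2 highest of 10063 genes over only 6 points, so high values of r are what the search returns. None of the genes named here had an adjusted p under 0.05 (limma), and their adjusted p-values ran from 0.532 to 0.936.

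The other genes of GABA handling did not pass the test. All 12 genes of a list of transporters and enzymes were tested, of which 4 had estimates above 0 and 8 below, with a median log2 fold change of -0.09. By limma 0 of 12 passed and 3 had an unadjusted p under 0.05, beside 0.713% and 10.4% of all genes. Of these 12 genes edgeR called 0 and DESeq2 called 2, beside 0.733% and 2.15%. *Aldh5a1*, the step after *Abat*, was at 93.8 ± 10.7 and 92.1 ± 2.79 TPM (log2 fold change -0.03, limma adjusted p = 0.935).

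*Glul*, glutamine synthetase, which returns nitrogen to neurons as glutamine, was the most abundant gene of that list. It was at 6107, 6277 and 6582 TPM after PBS and 5499, 5419 and 5150 TPM after DT, and every DT library was below every PBS library. Its log2 fold change was -0.25 (SE 0.08, limma adjusted p = 0.297, DESeq2 adjusted p = 0.0156). *Slc6a6*, the taurine transporter, which also carries GABA weakly, was at 98.2 ± 18.4 TPM after PBS and 73.2 ± 6.63 TPM after DT (log2 fold change -0.42, SE 0.12, limma adjusted p = 0.266, DESeq2 adjusted p = 0.0339). *Aldh9a1*, which makes GABA from aminobutyraldehyde, and *Adhfe1*, which oxidises hydroxybutyrate, had log2 fold changes of -0.17 and -0.20 (limma adjusted p = 0.5 and 0.426). In CPM *Glul*, *Slc6a6*, *Aldh9a1* and *Adhfe1* made 4 of 12 genes with every DT library below every PBS library, beside 7.57% over all genes.

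In glycine and serine handling 14 of 16 genes were tested, with 6 estimates above 0, 8 below and a median log2 fold change of -0.04. The 1 of 14 that passed, beside 0.713% of all genes, was *Slc1a4* (ASCT1), an exchanger of serine, alanine and other small neutral amino acids. It was at 257, 232 and 243 TPM after PBS and 348, 331 and 318 TPM after DT. It thus rose from 244 ± 12.6 to 332 ± 15.1 TPM (log2 fold change 0.43, SE 0.07, limma adjusted p = 0.0387), against the sign of *Gldc*. The call was lost with no filter, with no variance trend and when any library other than PBS replicate 1 was left out.

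The partners of *Gldc* in the cleavage system lay nearer to 0 than *Gldc* did. *Amt* was at 107 ± 4.80 and 100 ± 3.02 TPM (log2 fold change -0.10, limma adjusted p = 0.661), *Gcsh* at 123 ± 4.59 and 131 ± 5.82 TPM (log2 fold change 0.08, limma adjusted p = 0.742) and *Dld* at 115 ± 4.03 and 111 ± 5.62 TPM (log2 fold change -0.06, limma adjusted p = 0.815). *Phgdh*, which begins serine synthesis, was at 547 ± 12.2 and 498 ± 26.5 TPM (log2 fold change -0.15, limma adjusted p = 0.478). For *Amt* and *Phgdh*, as for *Gldc*, every DT library lay below every PBS library in TPM. In CPM 3 of the 14 genes tested were apart in this way, beside 1146 of all 15137 genes. Another 3 had every DT library above every PBS library, beside 1325 of all genes. *Slc7a10* (Asc-1), an exchanger of glycine and D-serine, was at 818 ± 65.2 and 747 ± 69.2 TPM (log2 fold change -0.15, limma adjusted p = 0.615). *Slc6a5*, the neuronal glycine transporter GlyT2, had 0 reads in all 6 libraries.

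In monoamine handling 15 of 23 genes were tested, with 5 estimates above 0, 10 below and a median log2 fold change of -0.08. By limma 0 of 15 passed and 3 had an unadjusted p under 0.05, beside 0.713% and 10.4% of all genes. Both edgeR and DESeq2 called 0 of the 15, beside 0.733% and 2.15% of all genes. *Hnmt*, which methylates histamine, was at 74.7 ± 6.88 and 61.2 ± 6.80 TPM (log2 fold change -0.30, limma adjusted p = 0.419). *Aldh2* and *Aldh1a1*, which oxidise the aldehydes that the monoamine oxidases make, had log2 fold changes of -0.01 and -0.02 (limma adjusted p = 0.965 and 0.955). The neuronal carriers *Slc6a2* and *Slc6a4* and the synthetic enzymes *Th* and *Dbh* had 0 reads in all 6 libraries. The summed level of the 7 monoamine neuron markers, carried mostly by *Ddc*, was 10.9 to 14.5 TPM after PBS and 5.66 to 11.2 TPM after DT.

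**Figure D4:**
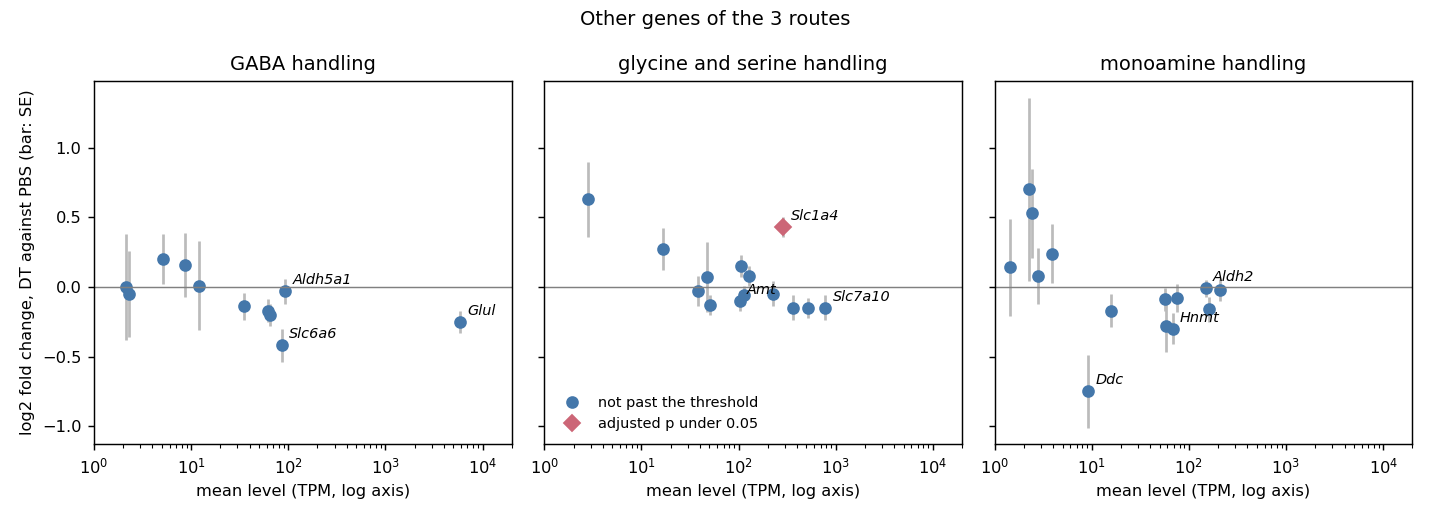
Log2 fold change, DT against PBS (y axis, bars for the SE), against the mean level in TPM (x axis, log axis) for 11 genes of GABA handling, 14 of glycine and serine handling and 14 of monoamine handling (one panel each). Slc1a4 at 0.43 is the 1 gene with an adjusted p under 0.05, and Ddc at -0.75 is the lowest point.

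Ratios of 2 genes within a library do not depend on the scaling between libraries, and 7 pairs that share a substrate or a route were compared (exact permutation tests, two-sided, smallest p 0.1, Benjamini-Hochberg over the 7), of which 5 are reported. *Abat* over *Aldh5a1* was 3.02, 2.99 and 2.98 after PBS and 2.62, 2.69 and 2.81 after DT. The PBS libraries were close to each other in this ratio, PBS replicate 1 included, and all DT libraries lay below them (difference of log2 ratios -0.15, exact p = 0.1, adjusted p = 0.35). *Gldc* over *Amt* had geometric means of 4.14 and 3.65 with overlapping groups (difference -0.18, exact p = 0.2). *Slc6a9* over *Slc6a11* was 0.0437 and 0.0467 (difference 0.10, exact p = 0.3). *Maob* over *Maoa* was 1.31 in both groups (difference -0.01, exact p = 0.9). *Slc22a3* over *Slc29a4* was 0.227 and 0.139 with an SD of 1.19 and 1.53 on the log2 scale (difference -0.71, exact p = 0.6). None of the 7 reached an adjusted p under 0.35, and with 3 against 3 none could pass 0.05.

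**Figure D5:**
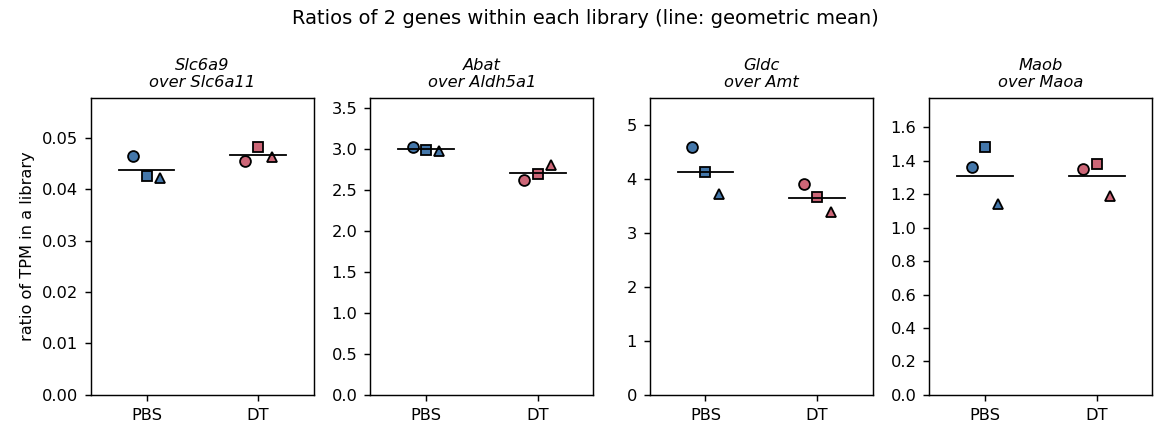
Ratio of the TPM of 2 genes within each library (y axis, from 0, one panel for each of 4 pairs), with a circle, square and triangle for replicates 1, 2 and 3 of each group and a line for the geometric mean of the group. For Abat over Aldh5a1 the PBS libraries lie at 2.98 to 3.02 and the DT libraries at 2.62 to 2.81, and the groups overlap in the other 3 panels.

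Markers of other cell types summed to less than those of astrocytes in every library, and some of them moved with the treatment. The 6 microglia markers summed to 61.5 to 76.8 TPM after PBS and 22.4 to 25.8 TPM after DT, and the 5 border macrophage markers to 12.6 to 21.9 and 51.4 to 66.4 TPM. The 3 oligodendrocyte precursor markers summed to 110 to 153 TPM after PBS and 83.7 to 108 TPM after DT, the 5 endothelial markers to 489 to 755 and 411 to 480 TPM, and the 5 ependymal markers to 380 to 501 and 509 to 897 TPM, so that these ranges too did not overlap. Choroid plexus markers overlapped, at 100 to 2013 TPM after PBS and 1244 to 3411 TPM after DT, and reached the highest sums of these cell types. *Ttr* alone was at 802 ± 1019 TPM after PBS and 2266 ± 1080 TPM after DT, so this level was not low. Oligodendrocyte (452 to 559 and 401 to 495 TPM), pericyte (381 to 581 and 429 to 533 TPM), inhibitory neuron (31.6 to 39.8 and 31.9 to 53.8 TPM) and meningeal fibroblast markers (30.2 to 47.0 and 27.4 to 46.7 TPM) overlapped. The part of these cells in the values of the 7 genes was not tested.

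Of the genes next to the members on their chromosomes, none that was tested passed (limma). *Uhrf2*, next to *Gldc*, was at 35.1 ± 1.74 and 31.5 ± 2.63 TPM (log2 fold change -0.17, SE 0.09, limma adjusted p = 0.563). *Mettl22* and *Tmem186*, on the sides of *Abat*, had log2 fold changes of -0.05 and 0.00. *Atp2b2*, before *Slc6a11*, had a log2 fold change of 0.01. *Ndp*, beyond *Maob*, had 39.6 ± 2.52 TPM after PBS and 46.3 ± 2.09 TPM after DT with no overlap (log2 fold change 0.21, limma adjusted p = 0.460), the opposite sign from *Maob* and *Maoa*. *Map3k4*, the nearest expressed neighbour of *Slc22a3*, was at 40.3 ± 2.51 and 40.1 ± 1.86 TPM, far above it.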

How the data were processed

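Astrocyte RNA of 3 PBS and 3 DT libraries was sequenced on a stranded kit. According to the methods of the study, the authors trimmed reads with Trim Galore 0.5.0, mapped them to mm10 with HISAT2 2.1.0, removed ribosomal reads with BEDTools 2.25.0, quantified genes with StringTie 1.3.5 and compared groups with edgeR 3.24.3. The authors deposited TPM and a signal per gene, which is CPM scaled by TMM factors and not plain CPM as the design had assumed. The p-values, q-values and fold changes of their comparison were not used.

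The deposited CPM were whole multiples of 1 read in 100% of values, with a tolerance of 0.0309 to 0.0366 reads, so reads were recovered. Here, log2(CPM + 0.1) of genes averaging at least 0.5 CPM was compared with limma 3.58.1 (R 4.3.3, variance trend, two-sided, Benjamini-Hochberg). This scale understates differences of genes with few reads. Levels between genes were compared in TPM. Alternatives were pseudocounts, filters, scalings, TPM, a fit without variance trend, a block for replicate number, leaving out each library, edgeR 4.0.16 and DESeq2 1.42.0 on recovered reads. Single values and ratios had exact permutation tests. The p-values measure the spread between libraries, in which pools of mice and separate experiments cannot be told apart.

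Members, lists and tests were chosen with earlier results of these data known. In the text are named the members, list genes past the threshold or with a mean of at least 10 TPM, genes of the ratios, chromosomal neighbours, the 2 genes most like each member among those of at least 10 CPM, markers, *Gfap* and *Siglech*. Other list genes are named only where they had 0 reads, and some genes that these rules name are not reported here. Gene coordinates were taken from GENCODE M21 (mm10) and promoter windows from RefSeq.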

Additional observations from a re-analysis of the deposited data

How the results depend on the processing

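With 3 libraries a group, the 95% intervals of the 6 abundant genes reached from -26.8% to 15.4%, and *Slc22a3* rested on 6 to 25 reads per library. The log2 fold changes of *Slc6a11*, *Abat*, *Maob* and *Gldc* stayed below 0 in 16 of 16 other fits each. Leaving out each library in turn gave -0.208 to 0.066 for *Slc6a9*, -0.142 to 0.0128 for *Maoa* and -0.562 to 0.445 for *Slc22a3*. *Slc22a3* was also above 0 with a pseudocount of 1 (0.0135), edgeR (0.117) and DESeq2 (0.12). DESeq2 called *Gldc* (-0.281), the 1 member it called.

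Over all genes, 84 were called higher and 24 lower. No variance trend gave 35 and 11, DESeq2 gave 227 and 98, and leaving out each library gave 39 to 72 and 9 to 20. GABA handling had 1 call with quantile normalization and 2 with DESeq2, in place of 0. Glycine and serine handling had 0 calls with no filter and with no variance trend, and 0 to 1 with a library left out. Monoamine handling had 0 to 1 with a library left out. The log2 ratio of *Maob* over *Maoa* differed by -0.114 to 0.0744 and that of *Slc22a3* over *Slc29a4* by -1.5 to 0.0256 with a library left out. The cause was not tested.

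The labels do not say whether equal replicate numbers mark the same experiment, and the main fit did not treat the numbers as pairs. Deviations from the group means of same-numbered libraries correlated at 0.115, 0.0105 and 0.118. Those of differently numbered libraries correlated at -0.124 to 0.0115, so these values do not exclude a pairing. With the replicate block, 79 genes were called higher and 30 lower, 0 members were called, and *Gldc* had a log2 fold change of -0.28 (limma adjusted p = 0.0512). The *Slc1a4* call held.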
